A study of Mus musculus with 6 samples.

Results

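The arginine methyltransferase genes are the family to which Prmt6 itself belongs, and here they were Prmt1, Prmt2, Prmt3, Carm1, Prmt5, Prmt6, Prmt7, Prmt8 and Prmt9. They were chosen by symbol, and all 9 were measured, out of 19938 genes with a probe set that names a single gene. Each was read by 1 such probe set, so no member had a further probe set to compare with. RNA came from HM1, a line of mouse embryonic stem (ES) cells, transfected with the pCAGIP.puro plasmid, either empty (control, 3 arrays) or carrying mouse Prmt6 (overexpression, 3 arrays). Both groups were grown in 15% serum with leukemia inhibitory factor (LIF, which holds mouse ES cells undifferentiated) at 1000 U/ml. Both were also exposed to puromycin at 1 ug/ml for 3 days. The samples were selected populations of cells, so the level of the transgene in single cells and the share of cells that carried it were not analysed here. The labels number the replicates but do not say whether these were separate cultures, so the p-values rest on a spread between samples that may be technical only.

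Protein arginine methyltransferases move methyl groups from S-adenosylmethionine to arginines of histones, RNA-binding proteins and signalling proteins. Type I enzymes (Prmt1, Prmt2, Prmt3, Carm1, Prmt6 and Prmt8) make asymmetric dimethylarginine, type II enzymes (Prmt5 and Prmt9) make symmetric dimethylarginine, and the type III enzyme Prmt7 makes monomethylarginine alone. Prmt6 is a nuclear enzyme known for methylating arginine 2 of histone H3, and in ES cells Prmt5 and Carm1 are known for roles in keeping cells undifferentiated. Values below are log2 signals on which arrays are comparable for 1 gene. They do not order different genes by abundance, since probes differ in brightness.

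With the Prmt6 plasmid, Prmt2 rose 1.49-fold and Prmt6 rose 1.42-fold, while Prmt8, the membrane-bound family member known mainly from neurons, fell 2.65-fold (0.58 ± 0.10, 0.50 ± 0.13 and -1.41 ± 0.12 on the log2 scale, SE, n = 3 per group, limma). The calls of Prmt2 and Prmt8 held in all 13 alternatives tried, and that of Prmt6 ended in 7 of them. The remaining 6 members, among them Prmt1 and Prmt5, the main sources of asymmetric and symmetric dimethylarginine in most cells, did not pass the test. The test was limma's across all genes, with an adjusted p (Benjamini-Hochberg) of 0.05 as the threshold. Thus 3 of 9 members passed (33.3%), against 10.3% of all genes. Higher calls were 2 of 9, against 7.05% of all genes, and the lower call was 1 of 9, against 3.25%. Prmt6 was the gene on the plasmid, and of the other 8 members 2 passed (25%). In so short a list these shares are no result about the family. All 3 calls, that of Prmt6 included, were among the 6 type I genes, while the 2 type II genes and Prmt7 did not pass. With so few genes outside type I and 10.3% of all genes called, this split does not show a difference between types. The median change of the family was 0.02 on the log2 scale and that of all genes was 0. The arrays of the groups did not overlap for 4 of 9 members (44.4%), against 29.7% of all genes, which is again no result about the family.

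The sequences around the start sites of the 3 genes that passed are shown with their base composition. Each window holds 250 bases before and 50 bases after the start in RefSeq, build GRCm38.p6, and is printed 5′ to 3′ on the strand of the gene, with CpG dinucleotides in capitals. Prmt6 lies at chr3:110250950-110251249, Prmt2 at chr10:76237816-76238115 and Prmt8 at chr6:127769106-127769405, each on the minus strand.
Prmt6: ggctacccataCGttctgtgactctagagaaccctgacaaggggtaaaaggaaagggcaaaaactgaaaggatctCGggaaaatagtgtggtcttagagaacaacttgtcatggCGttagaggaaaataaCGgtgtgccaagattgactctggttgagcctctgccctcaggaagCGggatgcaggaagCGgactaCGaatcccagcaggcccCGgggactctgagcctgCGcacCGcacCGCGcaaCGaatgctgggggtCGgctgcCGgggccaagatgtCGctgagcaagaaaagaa
Prmt2: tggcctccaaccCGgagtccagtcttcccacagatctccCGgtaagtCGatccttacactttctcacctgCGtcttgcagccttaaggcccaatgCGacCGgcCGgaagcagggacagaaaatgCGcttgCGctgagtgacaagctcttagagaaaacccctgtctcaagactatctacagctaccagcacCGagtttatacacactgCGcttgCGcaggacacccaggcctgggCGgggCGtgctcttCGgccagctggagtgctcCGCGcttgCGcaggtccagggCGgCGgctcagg
Prmt8: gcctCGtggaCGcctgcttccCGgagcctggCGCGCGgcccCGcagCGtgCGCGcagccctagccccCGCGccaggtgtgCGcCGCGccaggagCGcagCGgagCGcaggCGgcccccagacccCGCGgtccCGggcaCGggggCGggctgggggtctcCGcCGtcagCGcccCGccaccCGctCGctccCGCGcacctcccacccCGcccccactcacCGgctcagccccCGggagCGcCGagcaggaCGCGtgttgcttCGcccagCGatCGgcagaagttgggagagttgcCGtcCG

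The Prmt8 window shown was the richest in CpG of the 8 members with a window, at 44 dinucleotides and a GC content of 79%. Of 27025 gene starts, 97.8% held fewer. Prmt8 had 2 windows in the source, of which the first listed was used, and the other was not analysed here. Prmt2 held 20 and Prmt6 held 16, where the median over gene starts was 7. The other members ran from 16 in Prmt5 to 39 in Prmt7. Whether CpG content had a part in any change was not tested. The Prmt6 window is that of the gene on its chromosome, and the sequence on the plasmid was not analysed here. A window for Carm1 was not used here. Of 4 short motifs searched on both strands, the GC box GGGCGG occurred 2 times each in Prmt2 and Prmt8 and 0 times in Prmt6, and 35.9% of all windows hold it. The CCAAT box CCAAT (37.9% of windows) and the TATA box TATAAA (14.2%) each occurred 1 time in Prmt2 and 0 times in Prmt6 and Prmt8, and the E-box CACGTG (7.24%) was in none of the 3. These matches describe the letters of the windows and do not show that a factor binds there.

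Prmt6, the gene on the plasmid, had log2 signals of 6.84, 6.58 and 7.12 in the control arrays and of 7.32, 7.40 and 7.33 in the overexpression arrays. Every overexpression array was above every control array, with a gap of 0.20 between the nearest ones. The overexpression arrays lay close together and the control arrays did not. The SD was 0.044 with the plasmid and 0.27 in control (n = 3 each), and 3.12% of all genes had a control SD at least as large. The rise was 0.50 ± 0.13 (log2, SE), with a 95% interval from 0.21 to 0.79, or 1.16-fold to 1.73-fold (limma, adjusted p = 0.0406). A change at least as large in size was seen in 4.63% of all genes. Whether the probes lie within the cloned sequence was not tested.

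The Prmt6 call ended in 5 of the 6 fits that left out 1 array. Without control replicate 1, which sat in the middle of its group, the adjusted p was 0.116, and without control replicate 2, the lowest array, the rise was 0.37 (0.0954). Without overexpression replicates 1, 2 and 3 it was 0.0893, 0.119 and 0.0788. Without control replicate 3, the highest control array, the rise was 0.64 and the call held (0.0108). It also ended when every one of the 35556 probe sets was tested (0.112). The size of the rise lay between 0.37 and 0.64 over all 13 alternatives, each of them upward.

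Prmt2 is a type I enzyme with weak activity of its own that is known as a coactivator of nuclear receptors. Its log2 signals were 6.63, 6.98 and 6.80 in control and 7.47, 7.27 and 7.41 with the Prmt6 plasmid. All 3 overexpression arrays were above all 3 control arrays, by 0.29 between the nearest ones. The rise was 0.58 ± 0.10 (log2, SE), with a 95% interval from 0.34 to 0.82 or 1.27-fold to 1.76-fold (limma, adjusted p = 0.00908). The call held in all 13 alternatives, with changes from 0.49 to 0.67 and adjusted p from 0.000422 to 0.0393. The intervals of Prmt2 and Prmt6 overlap over most of their length, so the order of these 2 rises was not resolved.

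Prmt8, unlike the other members, is anchored to the plasma membrane by myristoylation. Its control arrays read 6.51, 6.5 and 6.52, and 99.1% of all genes had a control SD at least as large. With the Prmt6 plasmid they read 5.34, 5.14 and 4.83, all below control by at least 1.16 and more spread out (SD 0.26 against 0.01). The fall was -1.41 ± 0.12 (log2, SE), with a 95% interval from -1.68 to -1.13 or 2.19-fold to 3.21-fold lower (limma, adjusted p = 0.000181). Of all genes, 0.537% changed by at least as much. The call held in all 13 alternatives, with changes from -1.5 to -1.3 and adjusted p from 8.08e-07 to 0.00326. As a rough floor, 1027 olfactory receptor genes, taken as silent in ES cells, had mean signals with a 5th percentile of 2.00, a median of 3.27 and a 95th percentile of 4.92. The control mean of Prmt8 (6.51) was above 99.8% of them and its overexpression mean (5.10) above 96.9%, and overexpression replicate 3, at 4.83, was below their 95th percentile. A fold change near such a floor understates a fall.

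**Figure D1:**
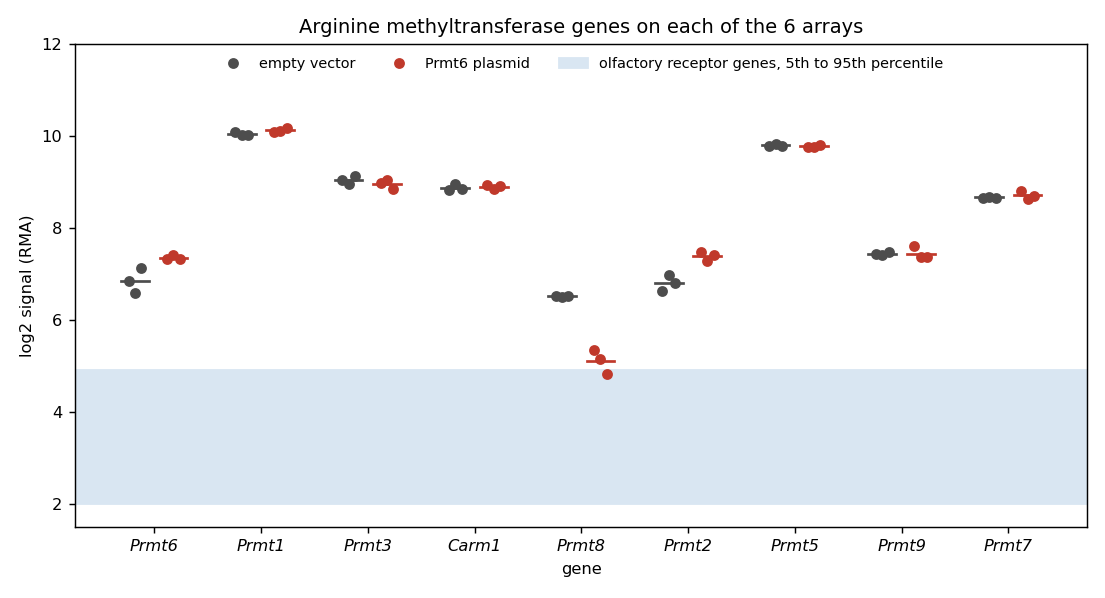
Log2 signal of each family member on the 3 control arrays (grey) and the 3 overexpression arrays (red), with group means as bars, and type I genes on the left. The blue band spans the 5th to 95th percentile of the means of 1027 olfactory receptor genes. The groups separate for Prmt6, Prmt2, Prmt8 and, by 0.01, Prmt1, and Prmt8 drops from 6.51 to 5.10, towards the band.

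Prmt1, the closest relative of Prmt8 and the enzyme behind most asymmetric dimethylarginine in mammalian cells, had control arrays at 10.08, 10.02 and 10.02 and overexpression arrays at 10.09, 10.11 and 10.17. The groups did not overlap, but the gap of 0.01 is the last digit of the deposited values, and the change of 0.083 ± 0.068 (log2, SE, 95% interval from -0.07 to 0.24) did not pass (limma, adjusted p = 0.514). Because Prmt1 and Prmt8 are similar in sequence, their probe sets could share signal, and this was not tested.

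Carm1, known for methylating histone H3 and splicing factors, had control arrays at 8.83, 8.96 and 8.84 and overexpression arrays at 8.93, 8.85 and 8.91. The groups overlapped, and the change was 0.02 ± 0.073 (95% interval from -0.15 to 0.19, limma, adjusted p = 0.906). Prmt3, a cytoplasmic enzyme known for methylating a ribosomal protein, read 9.05, 8.96 and 9.12 in control and 8.98, 9.04 and 8.84 with the plasmid. Its groups overlapped as well, with a change of -0.09 ± 0.083 (95% interval from -0.28 to 0.10, adjusted p = 0.569).

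Prmt5, the main type II enzyme, was among the steadiest members. It read 9.78, 9.82 and 9.79 in control and 9.76, 9.77 and 9.80 with the plasmid, with an SD of 0.021 in each group. The change was -0.02 ± 0.066 (95% interval from -0.17 to 0.13, limma, adjusted p = 0.896). Prmt9, the other type II enzyme, known for methylating a splicing factor, read 7.43, 7.42 and 7.47 in control and 7.61, 7.36 and 7.36 with the plasmid. Overexpression replicate 1 was above every control array and the other 2 overexpression arrays below, so the mean change was 0.003 ± 0.087 (95% interval from -0.20 to 0.20, adjusted p = 0.987). Prmt7, the type III enzyme, read 8.66, 8.68 and 8.65 in control and 8.80, 8.62 and 8.70 with the plasmid. Its change was 0.043 ± 0.074 (95% interval from -0.13 to 0.21, adjusted p = 0.784). Here too overexpression replicate 1 was the highest of the 6 arrays.

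For the 6 members that did not pass, the 95% intervals reached at most 1.18-fold upward and 1.21-fold downward, so larger changes lay outside the interval of each. That bound is per gene and is not corrected for looking at 6 genes. It holds for the reported fit alone. With median centring the change of Prmt1 was 0.13, and with quantile normalization that of Prmt3 was -0.14. The signs of Carm1, Prmt5, Prmt7 and Prmt9 each turned under some alternative.

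**Figure D2:**
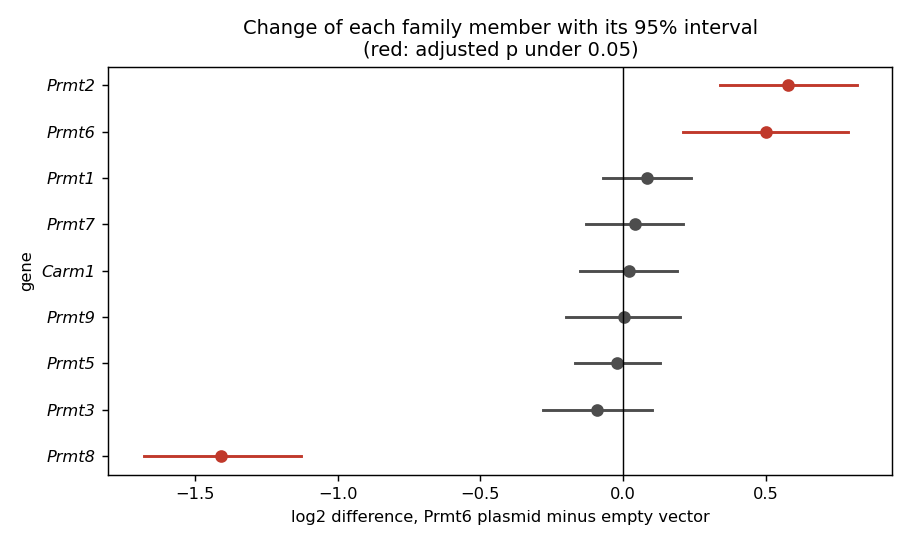
Log2 difference between the Prmt6 plasmid and the empty vector for each member (points) with its 95% interval (lines), from limma with n = 3 per group. Red marks an adjusted p under 0.05. The intervals of Prmt2, Prmt6 and Prmt8 stay away from 0, and those of the other 6 members cross it.

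**Figure D3:**
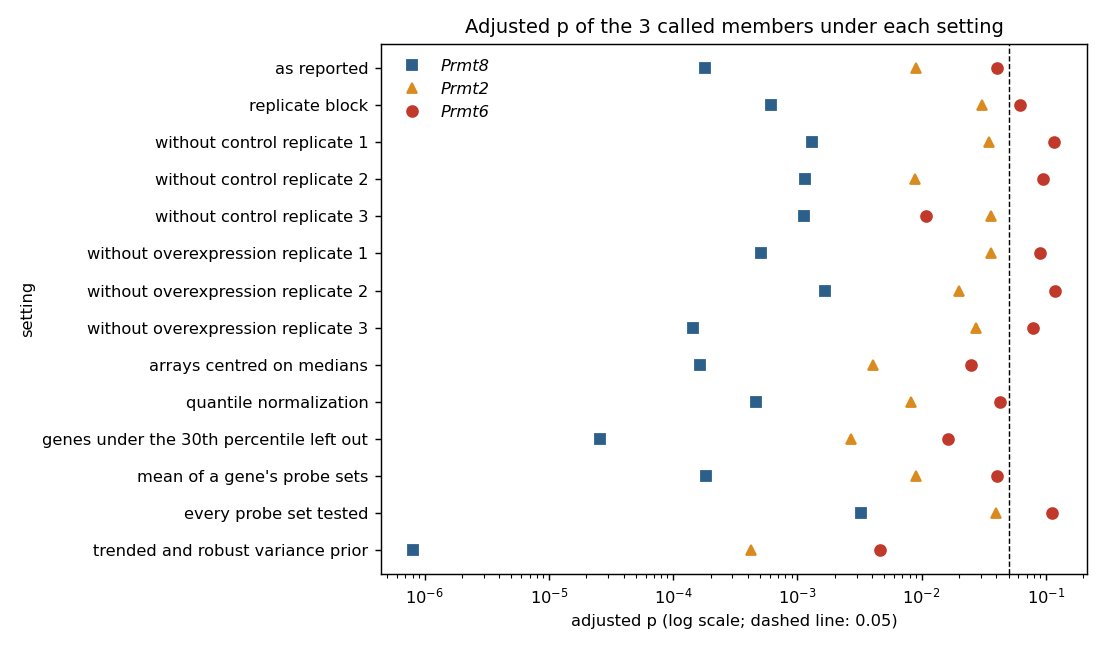
Adjusted p of Prmt8 (squares), Prmt2 (triangles) and Prmt6 (circles) on a log axis, as reported and under each of 13 alternatives. The dashed line marks 0.05. Prmt8 and Prmt2 stay to the left of it throughout, while Prmt6 crosses it in 7 of the 13.

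Measured over the 6 arrays, the gene nearest in pattern to Prmt2 was Pgf, at a root mean square distance of 0.0515 on the log2 scale after each gene was centred on its own mean, followed by Septin1 (0.059) and Emp2 (0.0597). Nearest to Prmt6 were Fam107b (0.0851), Acot2 (0.0972) and Nlrc4 (0.0994). Nearest to Prmt8 were Mir380 (0.127), Usp17la (0.128) and Arg2 (0.14), which changed by -1.41, -1.45 and -1.32. These are the 3 closest of 18710 genes each, picked by the same arrays, so their changes are close to the member's by construction. Within the family, Prmt2 and Prmt6, the only members called higher, were each other's nearest member, at 0.242, whereas the nearest to Prmt8 was Prmt3, at 0.669. This distance contains the change between the groups, so the pairing of Prmt2 with Prmt6 follows from their 2 rises and is no further result. Their control arrays were ordered oppositely. The 6 members that did not pass lay closer to their nearest member, at 0.0447 (Carm1 and Prmt5) to 0.0962 (Prmt3). Of the 18 named protein-coding genes that directly neighbour the 9 members on their chromosomes and were measured, a set chosen after the members' values were seen, 0 passed with limma and 3 had an unadjusted p under 0.05, a level that 24.5% of all genes reached. The lowest adjusted p was 0.0967, for Cracr2a beside Prmt8, at -0.31 ± 0.10.

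Genes that work with the family were described through 5 lists, of which 60 of 66 genes were measured. Of these, 3 rose, 2 fell and 55 did not pass, so that 8.33% passed, against 10.3% of all genes. Their median change was -0.02, against 0 for all genes. That share is close to the background, and it is no result about the lists.

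Of the partners that bind or direct the enzymes, 0 of 7 passed with limma, against 10.3% of all genes (median change -0.023). Of these 7, 2 had an unadjusted p under 0.05, against 24.5% of all genes. Wdr77, the obligate partner of Prmt5, read 11.01, 11.04 and 11.04 in control and 11.10, 10.95 and 10.97 with the plasmid, a change of -0.023 ± 0.073 (limma, adjusted p = 0.889). Clns1a, which brings spliceosomal proteins to Prmt5, read 9.60, 9.64 and 9.70 in control and 9.85, 9.85 and 9.75 with the plasmid. Its arrays did not overlap, but its change of 0.17 ± 0.071 did not pass (adjusted p = 0.186). Epb41l3, a membrane skeleton protein that binds Prmt3 and Prmt5, had the lowest p of the list, at 0.32 ± 0.11 (adjusted p = 0.103).

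Of the S-adenosylmethionine cycle, which supplies the methyl donor, Mtap rose, Bhmt fell and the other 6 of 8 measured genes did not pass (median change 0.017). The share that passed was 25%, against 10.3% of all genes, and in so short a list it is no result about the list. Mtap recycles methylthioadenosine, a compound known to inhibit Prmt5 when it accumulates. It read 7.48, 7.42 and 7.40 in control and 7.94, 7.95 and 7.92 with the plasmid, so that both groups were tight and well apart. Its rise of 0.50 ± 0.067 (limma, adjusted p = 0.00209) held in all 13 alternatives. Bhmt, which remakes methionine from betaine, read 5.47, 5.42 and 5.54 in control and 5.11, 5.26 and 5.17 with the plasmid. Its fall of -0.30 ± 0.075 (adjusted p = 0.0414) ended in 12 of the 13 alternatives, among them without any 1 array (0.0593 to 0.157).

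Of the proteins that read methylated arginines through Tudor and related domains, 0 of 12 passed with limma, against 10.3% of all genes. Their median change was -0.033, with a range from -0.25 to 0.31. Of these 12, 4 had an unadjusted p under 0.05, again against 24.5% of all genes. The lowest p was that of Smn1, the survival motor neuron gene, at 0.25 ± 0.074 (limma, adjusted p = 0.0764). It passed with dim genes left out (0.0349) and with a variance prior that was trended and robust (0.0137). Of the genes that break down free methylarginine or convert arginine in proteins to citrulline, 1 of 9 passed (11.1%, against 10.3% of all genes). It was Ddah2, which hydrolyses asymmetric dimethylarginine, at 7.36, 7.38 and 7.27 in control and 7.72, 7.71 and 7.63 with the plasmid. Its rise was 0.35 ± 0.071 (adjusted p = 0.0168), and the call ended without control replicate 1 (0.0618), control replicate 3 (0.0815) or overexpression replicate 2 (0.0616). Its relative Ddah1 was at 0.19 ± 0.07 (adjusted p = 0.143) and Jmjd6, for which arginine demethylation has been reported, at -0.063 ± 0.068 (0.636) without passing.

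Of the reported substrates of the family, Lsm4 rose, Trp53bp1 fell and the other 22 of 24 measured genes did not pass (median change -0.02). The share that passed was 8.33%, against 10.3% of all genes. Trp53bp1, a DNA damage response protein methylated by Prmt1, read 7.64, 7.63 and 7.67 in control and 7.40, 7.28 and 7.24 with the plasmid. Its fall was -0.34 ± 0.073 (limma, adjusted p = 0.0215), and the call held without overexpression replicate 1 and ended on leaving out any of the other 5 arrays (0.0553 to 0.0881). Lsm4, an RNA-binding protein methylated by Prmt5, rose by 0.26 ± 0.068 (adjusted p = 0.0447), a call that ended without any 1 array (0.0646 to 0.159). Polb, the DNA polymerase methylated by Prmt6, was at 0.023 ± 0.07 (adjusted p = 0.885). All of these are RNA levels and say nothing of how far the proteins were methylated.

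**Figure D4:**
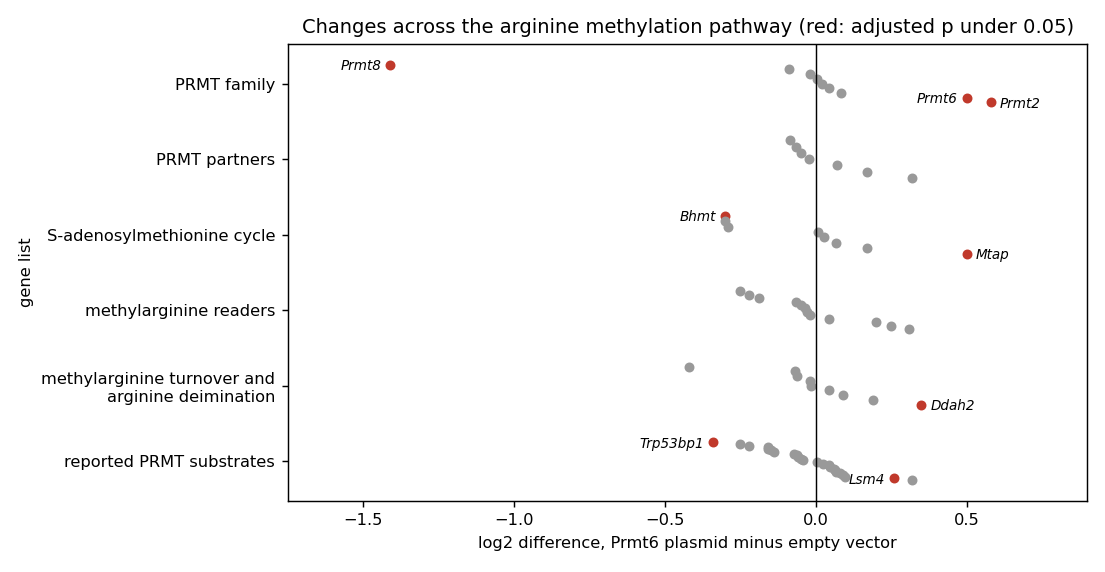
Log2 difference between the Prmt6 plasmid and the empty vector for each measured gene of the family and of 5 lists of genes that work with it, spread vertically within a list so that points do not hide each other. Red points passed an adjusted p of 0.05 and are named. Outside the family, 5 of 60 genes passed, and the changes of the lists lie between -0.42 and 0.50.

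The markers listed to check the cells were chosen with earlier results of these data known, and were read in the same arrays. Of 10 ES cell genes 0 rose, 3 fell (30%, against 3.25% of all genes) and 7 did not pass. The falls were small, at -0.34 for Nanog, -0.35 for Tdgf1 and -0.29 for Sox2. The Sox2 call (limma, adjusted p = 0.0485) ended with every probe set tested (0.0981). The 7 that did not pass lay between -0.10 (Klf4) and 0.19 (Pou5f1). The mean signal of the 10 ran from 10.35 to 10.39 over the control arrays and from 10.28 to 10.32 over the overexpression arrays. All 10 were above the 95th percentile of the olfactory receptor genes. Of 10 fibroblast genes 6 rose (60%, against 7.05% of all genes), and the mean of the 10 ran from 4.76 to 4.87 in control and from 5.20 to 5.34 with the plasmid. With every probe set tested, Col1a1, Col1a2 and Pdgfrb still passed (limma, adjusted p = 0.00362, 0.00317 and 0.0428). The calls of Col3a1, Dcn and Twist2 then ended (0.0803, 0.0986 and 0.104). Of the 10 fibroblast genes, Lum, Fap, Postn and Dcn stayed under that percentile in both groups, and among these only Dcn was called higher. Of 10 neuronal genes, from the tissue where Prmt8 is best known, 3 rose (30%, against 7.05% of all genes), 0 fell and 7 did not pass. Their mean ran from 6.23 to 6.30 in control and from 6.43 to 6.48 with the plasmid. The 3 were Tubb3, Nefl and Gap43, with control means of 7.29, 7.83 and 7.74. Of the 7, Stmn2, Dcx and Syt1 lay upward (0.087 to 0.30), and Map2, Rbfox3, Syn1 and Snap25 downward (-0.13 to -0.013). Of the 10 neuronal genes, 2 were under the olfactory percentile. The part of either set of cells in the changes of Prmt2, Prmt6 and Prmt8 was not tested. In these bulk samples, fewer cells that make a gene and less RNA per cell cannot be told apart. The medians of the 3 control arrays ran from 5.60 to 5.62, and those of the 3 overexpression arrays from 5.54 to 5.59.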

How the data were processed

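Total RNA (5 ug per sample) was labelled for 1 Affymetrix array each. The deposited values are log2 signals made by the authors with RMA, per the submitters' processing notes. Its version is not given in the sources used here. RMA gives the arrays like distributions and so hides a shift common to most genes. The table held 35556 probe sets. The platform annotation of 2016 named 1 gene for 21789 of them and several for 1621, and the others were not named. Each of 19938 genes was read by 1 single-symbol probe set, the brightest on average. No filter on dim genes was used, and all 9 family members also passed a filter at the 30th percentile of gene means.

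Groups were compared with limma 3.58.1 in R 4.3.3 (constant variance prior, two-sided, Benjamini-Hochberg over all genes, no covariates). With 3 arrays against 3, an exact permutation test cannot go below p = 0.1. The number of arrays limits the precision. The procedure was tested on simulated data, with 50 genes changed at each of the sizes 0.3, 0.5, 1 and 1.5 (log2) in 5 runs. It recovered 3.2%, 44.4%, 89.2% and 97.2% of them, and 2.98% of its calls were false. A gene that did not pass can therefore have changed by 0.3 or 0.5. The simulation changed a far smaller share of genes than was called in the data, so its recovery need not hold there. The members, lists and tests were chosen with earlier results of these data known. Named were all members, up to 4 passing genes per list (or that with the lowest p), Wdr77, Clns1a and the 3 genes nearest in pattern to each called member. Jmjd6, Ddah1, Polb and the genes beside the members were added after their values were seen. The rule also named Mat2a, which was not analysed here. The fit was repeated with a replicate block, without each array, with median centring, quantile normalization, a filter on dim genes, averaged probe sets per gene, every probe set and a trended and robust variance prior. Sequences came from RefSeq (GRCm38.p6), matched by symbol for 8 of 9 members. Plots were made in Python 3.11.15 (matplotlib 3.10.9).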

Additional observations from a re-analysis of the deposited data

How the results depend on the processing

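The fall of Prmt8 and the rises of Prmt2 and Mtap kept their direction and passed in all 13 alternatives. Same-numbered replicates of the groups did not deviate together (r = -0.019, -0.0158 and -0.117 over genes), so the numbers were not taken as pairs. With the replicate block, Prmt6 was at 0.50 (adjusted p = 0.0615), 1 member rose, 0 list genes fell and 383 genes fell. With every probe set tested, Prmt6 was at 0.50 (0.112), 1 member rose and 0 list genes fell. Leaving out 1 array gave 862 to 1232 rises and 280 to 763 falls over all genes, 1 to 2 rises among members, 1 to 2 rises and 0 to 2 falls among list genes, and changes of 0.37 to 0.64 for Prmt6, -0.0033 to 0.062 for Carm1, -0.0033 to 0.087 for Prmt7, -0.08 to 0.045 for Prmt9 and -0.07 to 0.005 for Wdr77. Leaving out genes below the 30th percentile, 990 genes fell, and 5 list genes rose and 4 fell. With a trended and robust prior, 1115 genes fell, and 6 list genes rose and 4 fell. List falls numbered 1 with median centring and 1 with averaged probe sets. Under quantile normalization Carm1 was at -0.031, Prmt7 at -0.011 and Prmt9 at -0.0081, and with centring Prmt5 was at 0.027 and Wdr77 at 0.023. Centring moved the median change of all genes to 0.047 and quantile normalization to 0.024. Centring gave 1838 rises and 447 falls where the reported fit gave 1405 and 647. The cause of these differences was not tested.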
